A study of Mus musculus with 15 samples.

Results

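The 8 genes described here are DNA repair and p53 checkpoint genes: Trp53, Mdm2, Cdkn1a, Atm, Msh6, Mgmt, Brca1 and Brca2. They were chosen by name, as every probe to which the array gives the gene name of one of them, and this gave 15 of the 41174 probes (8 of 27389 gene symbols). Cdkn1a had 1 probe and each of the other genes had 2. Of the 15 probes, 12 were bright enough to be tested, and each gene kept at least 1 of them.

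The samples came from colons of female Swiss Webster mice, all of them given azoxymethane (AOM), a carcinogen that methylates DNA, at 7.4 mg/kg, and then 3 cycles of 4% dextran sulfate sodium (DSS), which injures the colon lining. Each cycle is given as 7 days of DSS and 21 days of water. Mice aged 7 weeks at the start and 9 weeks at the first DSS were killed at 18 weeks. These ages leave less time than 3 full cycles, so the time between the last DSS and death is not known here. The 4 groups of 2 mice each were polypoid tissue of mice given 5-aminosalicylic acid (5-ASA, mesalamine) at 75 mg/kg, polypoid tissue of untreated mice given vehicle, inflamed tissue of 5-ASA mice and inflamed tissue of untreated mice. The study asked how 5-ASA affects cancer that arises with colitis, and polypoid tissue is set here against inflamed tissue, and 5-ASA against no drug. No mouse without AOM and DSS is among the samples, so no level in healthy colon is given here. Laser capture took the areas out of frozen 5 µm sections, and their RNA went through 2 rounds of amplification. Each of the 15 arrays carried 1 sample in one dye and a mouse universal reference RNA in the other. The values below are log2 of sample over reference, 1 per mouse, so a value shows a sample's level only relative to that RNA, and levels of different probes are not compared.

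The protein p53, encoded by Trp53, is activated when DNA is damaged. Atm, a kinase that senses double-strand breaks, phosphorylates it, Mdm2 marks it for destruction, and Cdkn1a (p21), one of its target genes, stops the cell cycle. Brca1 and Brca2 act in homologous recombination, Msh6 is part of the complex that recognises mismatched bases, and Mgmt removes the methyl group that agents such as AOM leave on guanine. In sporadic human colon cancer, loss of p53 is known mainly as a late event, whereas in cancer arising with colitis it is known to come early.

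Between tissues, 1 Trp53 probe was 4.26-fold lower and 1 Brca2 probe was 1.92-fold higher in polypoid than in inflamed tissue over both arms. The other Trp53 probe did not follow the first. Brca1 and both Msh6 probes had positive differences of 1.45-fold to 1.64-fold that missed the adjusted threshold of 0.05. The differences of Mdm2, Cdkn1a, Atm and Mgmt had 95% intervals that included 0. No probe of the 8 genes passed the threshold for 5-ASA over untreated. By limma with Benjamini-Hochberg adjustment over all 30166 probes tested, 2 of the 12 probes (16.7%) passed between tissues in both arms, against 4.83% of all probes. They were 1 higher, against 3.33% of all probes, and 1 lower, against 1.5%. Of the 12, 5 had an unadjusted p under 0.05, as did 22.2% of all probes. Their median log2 difference was 0.13, against -0.0031 over all probes tested.

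The arrays had a median sample intensity of 148.6 to 257.2 scanner units over a median local background of 41 to 63, and 57.4% to 90.9% of spots were well above background in the sample channel. The scan dates in the file headers gave 4 scan sessions. The session with both tissues held 5-ASA polypoid mouse 2, untreated polypoid mouse 2 and untreated inflamed mouse 2. Another held mouse 1 of both polypoid groups, another mouse 1 of both inflamed groups, and the last held 5-ASA inflamed mouse 2 alone, which had 1 array, with the sample in Cy3. Of colon epithelium marker probes, 18 of 19 were well above background on all 15 arrays. So were 25 of 29 proliferation, 11 of 14 smooth muscle and 14 of 28 leukocyte marker probes. For fibroblast, endothelium and neutrophil markers it was 7 of 15, 4 of 11 and 2 of 7. These counts do not show which cells were captured. None of the 15 probes had a saturated or outlier spot.

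**Figure D1:**
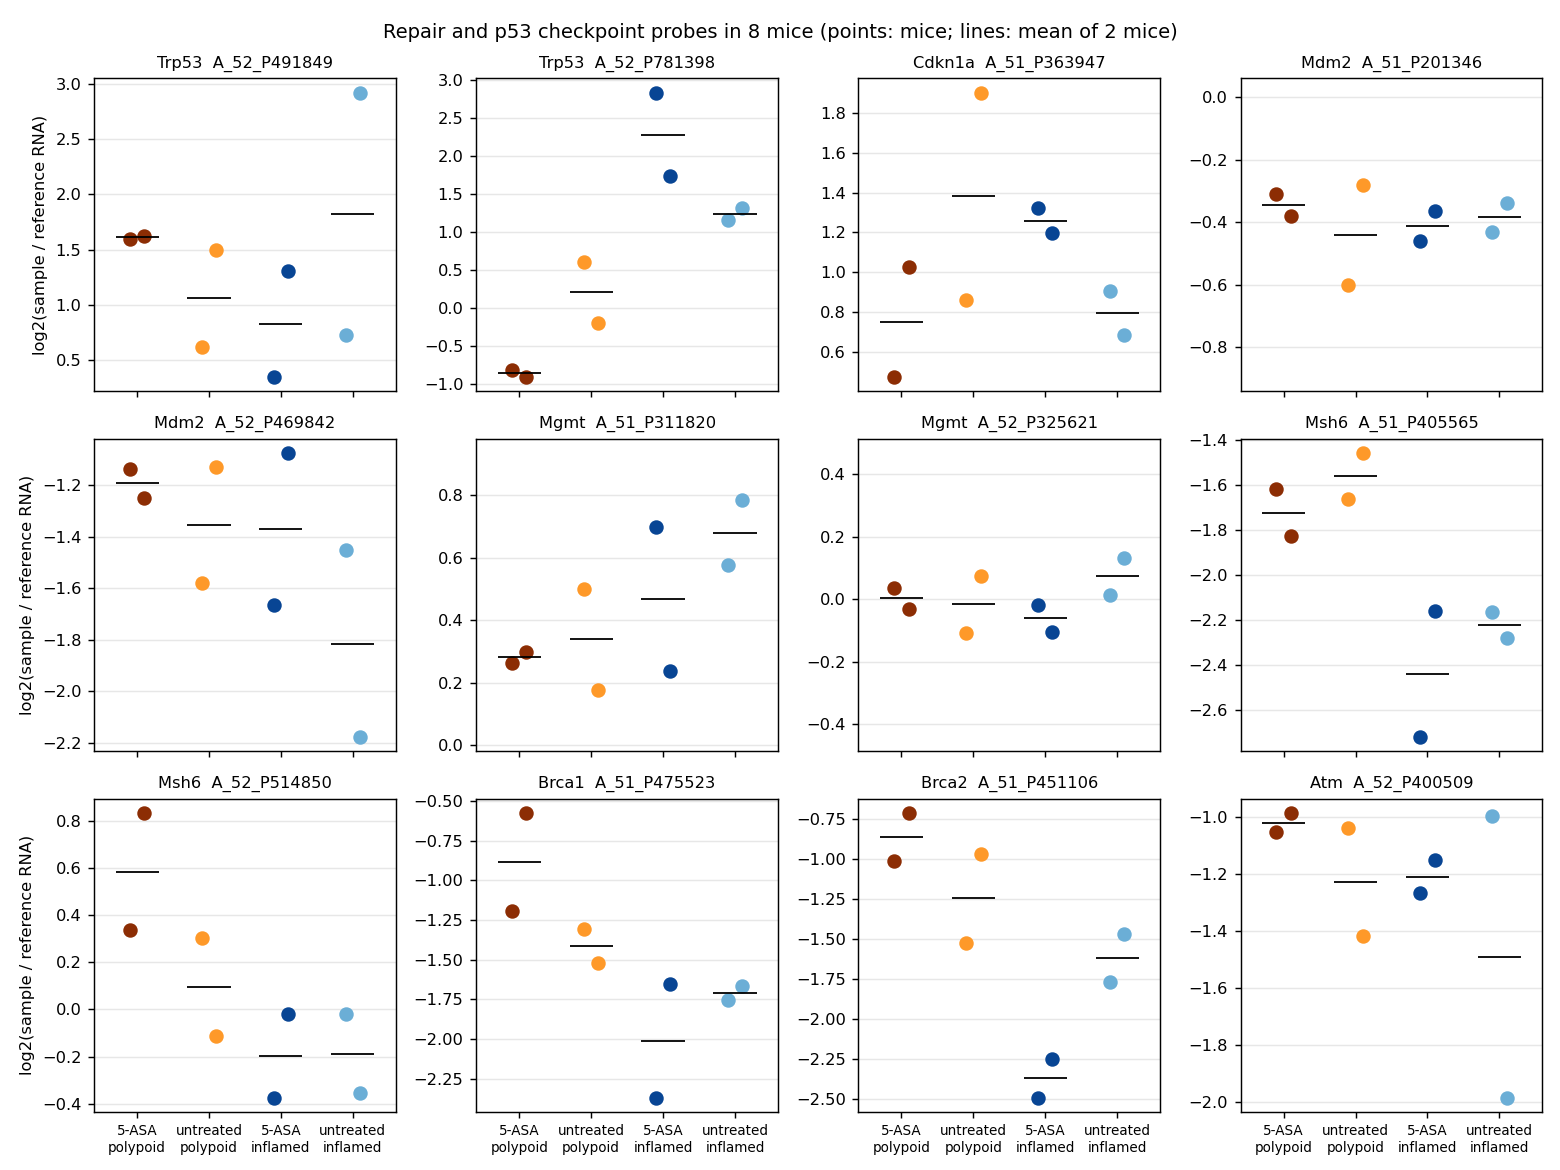
Each panel shows 1 of the 12 tested probes, with log2 of sample over reference RNA on the vertical axis and the 4 groups of 2 mice on the horizontal axis (points are mice, lines are means of 2, and the axes differ between panels). In the Trp53 A_52_P781398 panel all 4 polypoid points (-0.91 to 0.61) lie below all 4 inflamed points (1.17 to 2.84), and in the Msh6 A_51_P405565 and Brca1 A_51_P475523 panels all polypoid points lie above all inflamed points.

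Trp53 was measured by probes A_52_P781398 and A_52_P491849, both annotated on the array to the same RefSeq transcript, and both well above background on all 15 arrays. Probe A_52_P781398 had values of -0.81 and -0.91 in polypoid tissue of 5-ASA mice and 0.61 and -0.19 in polypoid tissue of untreated mice, against 2.84 and 1.74 in inflamed tissue of 5-ASA mice and 1.17 and 1.32 in inflamed tissue of untreated mice. The tissues did not overlap, the lowest values being those of both 5-ASA polypoid mice and the highest those of both 5-ASA inflamed mice. Polypoid tissue averaged -0.33 ± 0.70 and inflamed tissue 1.77 ± 0.75 (SD, n = 4 each). The log2 difference was -2.09 ± 0.29 (SE, 95% interval -2.79 to -1.39), with an adjusted p of 0.0201 by limma, so this probe fell in polypoid tissue. In captured tissue areas, fewer cells of a type and less RNA per cell cannot be told apart.

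Within the scan session that held both tissues, the difference of Trp53 A_52_P781398 was -1.87 between the mean of 2 polypoid mice and 1 inflamed mouse, with no test. With session as a fixed block, which left 1 residual degree of freedom, the difference was -2.71 ± 0.35 and the limma adjusted p was 0.337. With session as a random block it was -2.10 ± 0.29, with an adjusted p by limma of 0.0211. Leaving out 1 mouse gave adjusted p-values by limma of 0.0658 and 0.0676 without 5-ASA polypoid mouse 1 or 2, 0.0674 without 5-ASA inflamed mouse 1, and 0.0555 without untreated inflamed mouse 2. The values without these mice were -2.12, -2.06, -1.80 and -2.05, and the call stood when any one of the other 4 was left out.

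The second Trp53 probe, A_52_P491849, had values of 1.60 and 1.63 in polypoid tissue of 5-ASA mice and 0.62 and 1.50 in polypoid tissue of untreated mice, against 0.35 and 1.31 in inflamed tissue of 5-ASA mice and 0.73 and 2.92 in inflamed tissue of untreated mice. The tissues overlapped, and the highest and the lowest value were both from inflamed tissue. The log2 difference of polypoid over inflamed tissue was 0.01 ± 0.52 (SE), and its 95% interval, -1.25 to 1.27, runs from a ratio of 0.42 to one of 2.41 and does not include the value of the other probe. Within the session that held both tissues the difference was -1.35, and over the alternative settings it ran from -1.17 to 0.56. As a description over the 8 mice, the 2 Trp53 probes had a Pearson r of -0.32 and a Spearman rho of -0.50.

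In the 7 mice with a dye swap, the Cy3 array minus the Cy5 array was -0.53 to -0.03 for probe A_52_P781398 and -0.11 to 0.26 for A_52_P491849. Both arrays of a mouse used the same RNA, so these values give the error of the array and not that of the tissue. Over all 8 mice the values spanned -0.91 to 2.84 for the first probe and 0.35 to 2.92 for the second, while mice of 1 group could lie closer together than swapped arrays of 1 mouse. The scanner signal of A_52_P781398 in the sample channel was 1189 to 48300 units over the arrays, and that of A_52_P491849 was 114 to 1230 units. Of the 4 genes with both probes tested, Trp53 was the one with a negative r between probes. The others had r of 0.58 (Msh6), 0.29 (Mdm2) and 0.27 (Mgmt), each over 8 mice and given without a test.

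**Figure D2:**
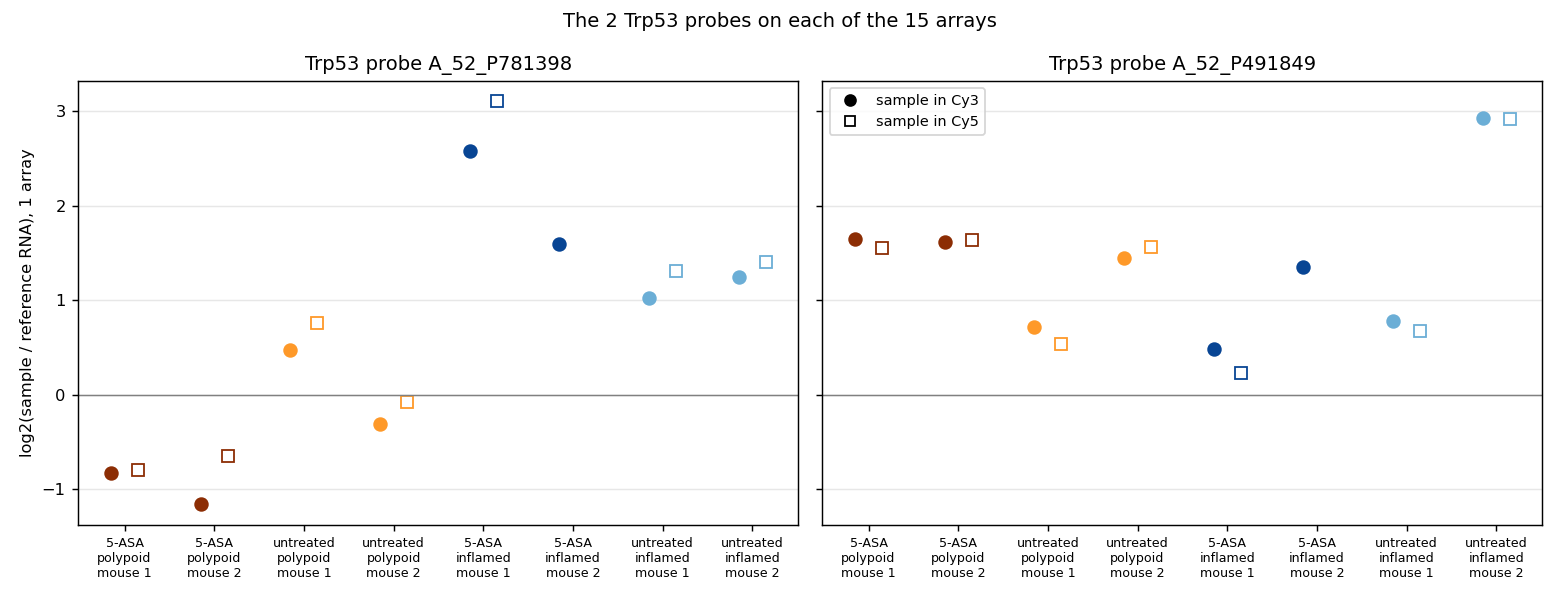
Log2 of sample over reference RNA (vertical axis) for the Trp53 probes A_52_P781398 (left) and A_52_P491849 (right) on each of the 15 arrays, by mouse (horizontal axis); filled circles are arrays with the sample in Cy3 and open squares arrays with the sample in Cy5. Swapped arrays of a mouse lie within 0.53 of each other in both panels, while the tissues separate in the left panel only.

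By arm, Trp53 A_52_P781398 had a log2 difference between polypoid and inflamed tissue of -3.15 ± 0.41 (SE) in 5-ASA mice, an 8.85-fold fall with a limma adjusted p of 0.028. In untreated mice it was -1.03 ± 0.41, with an adjusted p of 0.388 and a 95% interval of -2.02 to -0.05. The test of the difference between arms, which is also the difference of the 5-ASA effect between tissues, gave -2.11 ± 0.58 and an adjusted p of 0.816 (unadjusted p by limma 0.00996). In the 5-ASA arm no scan session held both tissues, so session and tissue cannot be told apart within that arm alone. The call in 5-ASA mice was lost without either 5-ASA polypoid mouse (adjusted p by limma 0.104 and 0.139, differences -3.20 and -3.09) and without either 5-ASA inflamed mouse (0.167 and 0.065, differences -2.57 and -3.70). In each case the single mouse left in its group was taken to vary like the others.

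The regulator and the target of p53 did not pass the test. Mdm2 probe A_51_P201346 had values of -0.31 and -0.38 in polypoid tissue of 5-ASA mice and -0.60 and -0.28 in that of untreated mice, against -0.46 and -0.36 in inflamed tissue of 5-ASA mice and -0.43 and -0.34 in that of untreated mice. The tissues overlapped, and the difference of 0.01 ± 0.11 (SE) had a 95% interval of -0.25 to 0.26. This probe was dim, being well above background on 11 of 15 arrays. The other Mdm2 probe, A_52_P469842, lay between -1.58 and -1.13 in polypoid and between -2.18 and -1.08 in inflamed tissue, with a difference of 0.32 ± 0.22 (95% interval -0.22 to 0.86, limma adjusted p = 0.463).

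Cdkn1a, the cell cycle inhibitor that p53 switches on, was well above background on all arrays with probe A_51_P363947. Its values were 0.47 and 1.02 in polypoid tissue of 5-ASA mice and 0.86 and 1.90 in polypoid tissue of untreated mice, against 1.32 and 1.20 in inflamed tissue of 5-ASA mice and 0.90 and 0.68 in inflamed tissue of untreated mice. The lowest value and the highest value were both in polypoid tissue. The log2 difference was 0.04 ± 0.26 (SE), with a 95% interval of -0.58 to 0.66 and a limma adjusted p of 0.949. It was -0.51 ± 0.36 in 5-ASA mice and 0.59 ± 0.36 in untreated mice, and the difference between these arms, -1.099 ± 0.51, had an adjusted p of 0.874.

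Atm, the kinase upstream of p53, had values with probe A_52_P400509 of -1.05 and -0.99 in polypoid tissue of 5-ASA mice and -1.04 and -1.42 in that of untreated mice, against -1.26 and -1.15 in inflamed tissue of 5-ASA mice and -0.996 and -1.98 in that of untreated mice. The tissues overlapped, and untreated inflamed mouse 2 was the lowest. The difference was 0.23 ± 0.23 (SE, 95% interval -0.33 to 0.78), with a limma adjusted p of 0.618. The second Atm probe, A_52_P369581, was well above background on 5 of 15 arrays (3 of 8 from polypoid and 2 of 7 from inflamed tissue) and was not tested. The tested probe is annotated to a different transcript record from the second. It was dim, at 44 to 325 units and well above background on 14 of 15 arrays.

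Among the repair genes, Brca2, which loads the recombinase onto broken DNA, was the one that passed. Probe A_51_P451106 had values of -1.01 and -0.71 in polypoid tissue of 5-ASA mice and -1.52 and -0.97 in polypoid tissue of untreated mice, against -2.49 and -2.25 in inflamed tissue of 5-ASA mice and -1.77 and -1.47 in inflamed tissue of untreated mice. The tissues overlapped by 1 pair, since untreated polypoid mouse 1 lay below untreated inflamed mouse 2, and both 5-ASA inflamed mice were the lowest. Polypoid tissue averaged -1.05 ± 0.34 and inflamed tissue -1.997 ± 0.46 (SD, n = 4 each). The log2 difference was 0.94 ± 0.17 (SE, 95% interval 0.54 to 1.35), with an adjusted p of 0.0362 by limma, so Brca2 rose in polypoid tissue on this probe. The second Brca2 probe, A_52_P513394, was well above background on 6 of 15 arrays (4 of 8 from polypoid and 2 of 7 from inflamed tissue) and was not tested.

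The Brca2 call rested on few mice. Within the session that held both tissues the difference was 0.63, with no test, and with session as a fixed block it was 0.99 ± 0.22 with a limma adjusted p of 0.34. With session as a random block it was 0.94 ± 0.16, with an adjusted p by limma of 0.0326. Leaving out any mouse other than untreated polypoid mouse 1 gave an adjusted p by limma of 0.0638 to 0.148, with differences of 0.80 to 1.02. By arm, the difference of Brca2 A_51_P451106 was 1.51 ± 0.24 in 5-ASA mice, 2.85-fold, with an adjusted p by limma of 0.0395, and 0.37 ± 0.24 in untreated mice, with an adjusted p of 0.572. The difference between the arms, 1.14 ± 0.34, had an adjusted p of 0.816. The call in 5-ASA mice stood without either untreated polypoid mouse and was lost without any of the other 6, at adjusted p-values by limma of 0.0561 to 0.25 and differences of 1.36 to 1.66. It was also lost with the deposited value table (1.47, adjusted p by limma 0.0551) and with session as a fixed block (1.54, adjusted p 0.439).

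Brca1, a partner of Brca2 in recombination and an E3 ligase, was measured by probe A_51_P475523 at -1.19 and -0.58 in polypoid tissue of 5-ASA mice and -1.31 and -1.52 in polypoid tissue of untreated mice, against -2.37 and -1.66 in inflamed tissue of 5-ASA mice and -1.76 and -1.67 in inflamed tissue of untreated mice. The tissues did not overlap, and 5-ASA inflamed mouse 1 stood lowest. The log2 difference was 0.71 ± 0.21 (SE, 95% interval 0.20 to 1.22), 1.64-fold, with a limma adjusted p of 0.116. It was 0.62 within the session that held both tissues. The second Brca1 probe, A_52_P18267, was well above background on 0 of 15 arrays, so it gives no level.

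Msh6, the mismatch sensor, gave differences in the same direction on both probes. Probe A_51_P405565 had values of -1.62 and -1.83 in polypoid tissue of 5-ASA mice and -1.66 and -1.46 in that of untreated mice, against -2.72 and -2.16 in inflamed tissue of 5-ASA mice and -2.16 and -2.28 in that of untreated mice. Again the tissues did not overlap. The log2 difference was 0.69 ± 0.15 (SE, 95% interval 0.32 to 1.06), 1.61-fold, with a limma adjusted p of 0.0605. It was 0.72 ± 0.21 in 5-ASA mice and 0.66 ± 0.21 in untreated mice. With the deposited value table it was 0.83 and with median centring 0.76, where it passed with limma adjusted p-values of 0.0383 and 0.0364. Over all other alternatives the adjusted p was 0.0541 to 0.355.

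The second Msh6 probe, A_52_P514850, had values of 0.34 and 0.83 in polypoid tissue of 5-ASA mice and 0.30 and -0.11 in that of untreated mice, against -0.37 and -0.02 in inflamed tissue of 5-ASA mice and -0.02 and -0.36 in that of untreated mice. The tissues overlapped through untreated polypoid mouse 2 alone. The log2 difference was 0.53 ± 0.18 (SE, 95% interval 0.09 to 0.97), with a limma adjusted p of 0.157. This probe is annotated to a different transcript record from the first, and its signal was 41 to 416 units. Over the 12 tested probes of the 8 genes, 3 had tissues that did not overlap, against 15.1% of all probes with a value in every mouse. Of these, 2 were higher in polypoid tissue, against 8.2% of all probes, and 1 was lower, against 6.91%.

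Mgmt, the enzyme that reverses the guanine methylation by agents such as AOM, had values with probe A_51_P311820 of 0.27 and 0.30 in polypoid tissue of 5-ASA mice and 0.50 and 0.18 in that of untreated mice, against 0.70 and 0.24 in inflamed tissue of 5-ASA mice and 0.58 and 0.78 in that of untreated mice. The tissues overlapped, and the difference was -0.26 ± 0.14 (SE, 95% interval -0.61 to 0.09, limma adjusted p = 0.349). The second Mgmt probe, A_52_P325621, lay between -0.11 and 0.07 in polypoid and between -0.11 and 0.13 in inflamed tissue. Its difference of -0.01 ± 0.09 had a 95% interval of -0.24 to 0.21, which is a ratio of 0.848 to 1.16. This probe was dim, at 76 to 138 units and well above background on 14 of 15 arrays, so the interval is no tight bound on Mgmt. It is annotated to a different transcript record from the first.

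**Figure D3:**
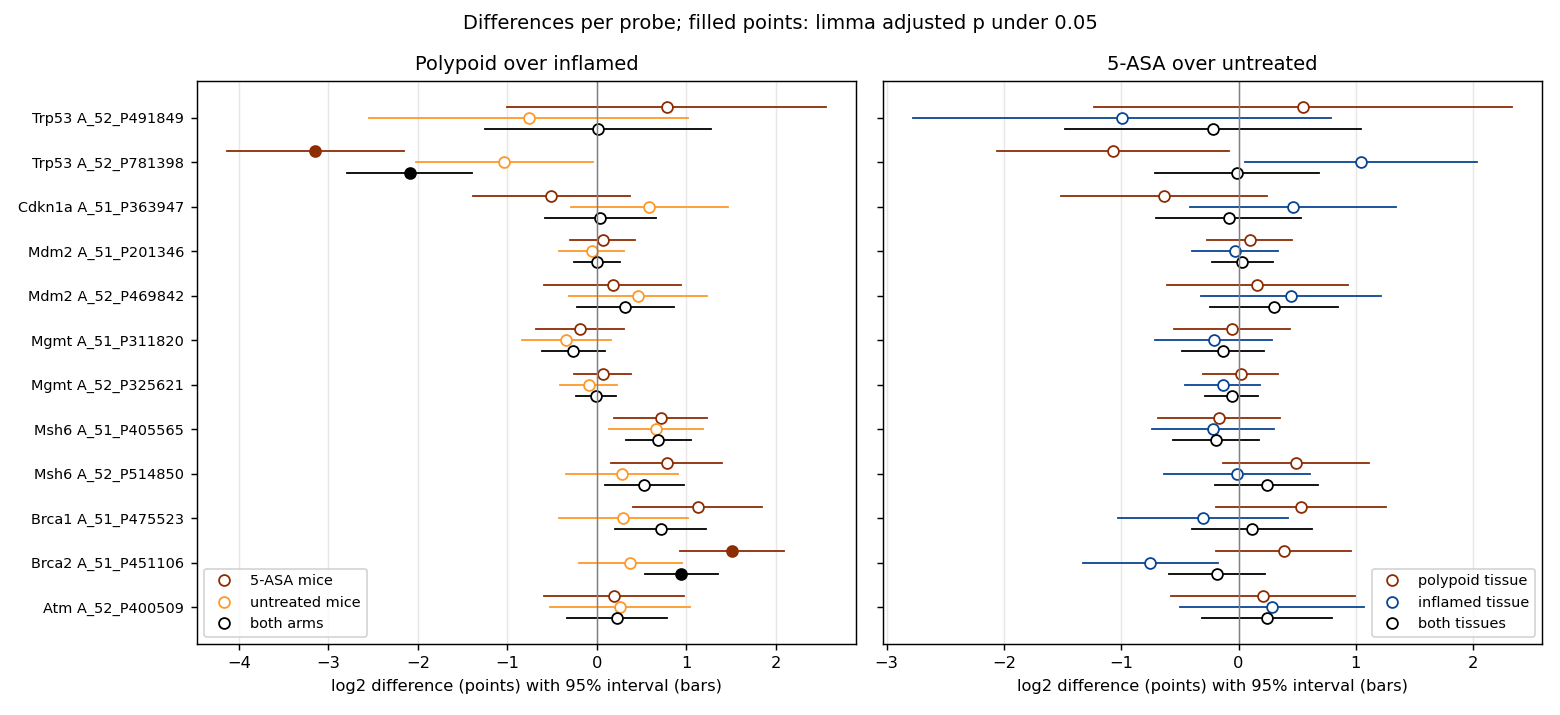
Log2 differences per probe (points, horizontal axis) with 95% intervals (bars) for polypoid over inflamed tissue (left) in 5-ASA mice, untreated mice and both arms, and for 5-ASA over untreated (right) in polypoid tissue, inflamed tissue and both tissues; filled points have a limma adjusted p under 0.05. The 4 filled points are Trp53 A_52_P781398 (-3.15 in 5-ASA mice, -2.09 in both arms) and Brca2 A_51_P451106 (1.51 in 5-ASA mice, 0.94 in both arms), and none is filled on the right.

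The promoters of Msh6, Brca1 and Brca2, are shown because these are the genes whose tested probes all had a positive difference between tissues with a 95% interval above 0. Each is the RefSeq window of 300 bases on GRCm38.p6, from 250 bases before to 50 bases after the gene's start, on the gene's own strand, at chr17:87974800-87975099 on the plus strand (Msh6), chr11:101551906-101552205 on the minus strand (Brca1) and chr5:150522371-150522670 on the plus strand (Brca2). Capitals mark CCAAT, the box bound by NF-Y, and TTCCCGC or TTGGCGC, which resemble the site of the cell cycle factors E2F, searched on both strands, where they do not overlap each other.
Msh6: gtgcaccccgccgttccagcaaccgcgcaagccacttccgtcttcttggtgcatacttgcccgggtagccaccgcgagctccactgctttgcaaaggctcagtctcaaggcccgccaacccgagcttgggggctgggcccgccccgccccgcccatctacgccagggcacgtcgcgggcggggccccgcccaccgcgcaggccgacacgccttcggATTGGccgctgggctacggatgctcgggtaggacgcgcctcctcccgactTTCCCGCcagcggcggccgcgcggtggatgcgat
Brca1: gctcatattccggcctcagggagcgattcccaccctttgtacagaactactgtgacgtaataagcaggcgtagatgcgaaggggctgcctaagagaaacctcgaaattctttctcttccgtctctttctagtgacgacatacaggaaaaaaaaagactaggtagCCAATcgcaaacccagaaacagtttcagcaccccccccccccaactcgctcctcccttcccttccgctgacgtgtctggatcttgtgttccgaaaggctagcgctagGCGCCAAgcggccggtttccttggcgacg
Brca2: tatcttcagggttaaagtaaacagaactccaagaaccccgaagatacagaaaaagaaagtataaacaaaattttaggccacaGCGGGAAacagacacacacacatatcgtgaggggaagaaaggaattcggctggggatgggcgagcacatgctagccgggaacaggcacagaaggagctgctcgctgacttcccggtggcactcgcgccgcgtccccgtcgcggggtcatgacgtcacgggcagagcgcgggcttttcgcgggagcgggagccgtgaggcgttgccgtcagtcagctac
In the Msh6 window CCAAT was found at bases 217 to 221 on the opposite strand and the E2F-like letters at bases 267 to 273. The Brca1 window had them at bases 165 to 169 and, on the opposite strand, 272 to 278. The Brca2 window had only the E2F-like letters, at bases 83 to 89 on the opposite strand. Of 32851 mouse promoter windows of the same length, 37.4% held CCAAT and 6.81% the E2F-like letters. The window of Atm held 1 of each, those of Trp53 and Mdm2 held CCAAT alone, and those of Cdkn1a and Mgmt held neither. The motifs were chosen with the results known, and a match is a run of letters, not evidence of binding.

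For 5-ASA over untreated, 0 of the 12 probes passed the adjusted threshold by limma in both tissues together, where 0% of all 30166 probes passed and 0 of the 12 had an unadjusted p under 0.05. Over both tissues the differences ran from -0.22 for Trp53 A_52_P491849 to 0.30 for Mdm2 A_52_P469842, with a median of -0.04, against -0.0017 over all probes tested. The smallest adjusted p was 0.886. None of the 12 probes separated 5-ASA from untreated mice without overlap, while 1.78% of all probes did. The 95% intervals were widest for Trp53 A_52_P491849 (-1.48 to 1.04) and narrowest for the dim Mgmt probe A_52_P325621 (-0.28 to 0.17).

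Within single tissues the 5-ASA differences also failed the adjusted test by limma, with 0 of 12 probes in polypoid tissue (0% of all probes, with an unadjusted p under 0.05 for 1 of the 12 and 7.64% of all) and 0 of 12 in inflamed tissue (0% of all probes, with an unadjusted p under 0.05 for 2 of the 12 and 4.25% of all). Trp53 A_52_P781398 was the probe in polypoid tissue, where its difference was -1.07 ± 0.41 (SE, limma adjusted p = 0.639). In inflamed tissue it was 1.04 ± 0.41 (adjusted p by limma 0.985). Both 5-ASA mice lay below both untreated mice in polypoid tissue and above both in inflamed tissue. How many of all probes did the same was not counted. Within scan sessions, the polypoid difference of this probe was -1.42 and -0.71 and the inflamed difference 1.67, each between single mice.

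Markers of other cells also differed with 5-ASA, none past the adjusted threshold by limma. Their part in the Trp53 and Brca2 values was not tested. In polypoid tissue 18 of 19 colon epithelium probes had negative differences (median -0.52). Of the 19, 7 had an unadjusted p under 0.05 by limma, as did 7.64% of all probes. In inflamed tissue 24 of 26 proliferation probes (median -0.45) and 13 of 13 smooth muscle probes (-1.03) were negative. Of these, 2 and 6 had an unadjusted p under 0.05 by limma, as did 4.25% of all probes. There, 12 of 19 epithelium probes were positive (0.06). For the difference of the 5-ASA effect, polypoid minus inflamed, 16 of 19 epithelium probes were negative (median -0.60, 4 at unadjusted p under 0.05). In the same comparison 24 of 26 proliferation probes were positive (0.66, 2 probes) and 12 of 13 smooth muscle probes were positive (0.91, 5 probes). Of all probes, 5.81% had an unadjusted p under 0.05 by limma there.

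Brca2 A_51_P451106 was the other probe in inflamed tissue, with a 5-ASA difference of -0.75 ± 0.24 (limma adjusted p = 0.985), -0.72 within the session that held a mouse of each arm. In polypoid tissue its difference was 0.38 ± 0.24 (adjusted p by limma 0.751). The test of the 5-ASA effect between tissues passed for 0 of 12 probes by limma, against 0% of all probes, with 2 of the 12 and 5.81% of all probes at an unadjusted p under 0.05. These were the same probes of Trp53 and Brca2. The remaining 10 tested probes had unadjusted p-values over 0.05 in each of these 3 comparisons.

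In the untreated arm alone, 0 of 12 probes passed between tissues by limma, against 0.119% of all probes, and 2 had an unadjusted p under 0.05, Trp53 A_52_P781398 and Msh6 A_51_P405565, as did 12.2% of all probes. In the 5-ASA arm 2 of 12 passed, against 2.27% of all probes, and 5 had an unadjusted p under 0.05, as did 18.2% of all probes. The median difference of the 12 probes was 0.18 in the 5-ASA arm, against 0.0026 over all probes, and 0.27 in the untreated arm, against -0.01 over all probes.

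The surrounding pathways were described with 8 lists of repair and p53 genes, holding 140 genes on the array and 218 tested probes, the 8 members among them. Between tissues in both arms, 9 of the 218 probes passed by limma, 8 higher and 1 lower in polypoid tissue, 4.13% of them against 4.83% of all probes. Their median log2 difference was 0.16, and 63 had an unadjusted p under 0.05, as did 22.2% of all probes. The 7 probes that passed and were not of the 8 genes were all higher in polypoid tissue. Of all 1458 probes called in this comparison, 1006 were higher and 452 lower. None of the lists had a call for 5-ASA over untreated by limma. There, 11 of the 218 and 6.2% of all probes had an unadjusted p under 0.05.

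By list, the median difference between tissues was 0.28 over 27 tested probes of mismatch repair, 0.30 over 37 of alkyl and base damage repair, 0.11 over 33 of homologous recombination, 0.07 over 16 of end joining and 0.26 over 14 of the Fanconi anaemia pathway. Over the alternatives these medians ran from 0.21 to 0.59, 0.14 to 0.44, 0.05 to 0.38, 0.03 to 0.22 and 0.16 to 0.45, in the same order. Mismatch repair had 1 call among its 27 probes, where 3.33% of all probes passed as higher. It was Rpa1, which coats single-stranded DNA and rose 1.67-fold (log2 difference 0.74 ± 0.15 SE, limma adjusted p = 0.0464). Base damage repair had 1 among its 37 probes, Polb, the polymerase that fills single-base gaps. It was at 1.66-fold (0.73 ± 0.13, limma adjusted p = 0.0335), while the other Polb probe was at 0.44. The only call of homologous recombination, among 33 probes, was Brca2. End joining and the Fanconi pathway had 0 calls by limma among their 16 and 14 probes, against 4.83% of all probes. With so few probes, 0 calls says little about either. They had 1 and 5 probes at an unadjusted p under 0.05 by limma, as did 22.2% of all probes.

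The checkpoint list had 2 of 21 probes higher, against 3.33% of all probes, and a median of 0.17. These were Cdc25a, a phosphatase that drives cell cycle entry (1.70-fold, limma adjusted p = 0.0453), and Chek1, the kinase that halts the cycle when replication stalls (1.52-fold, adjusted p by limma 0.0382). Other probes of these genes had log2 differences of 0.21 (Cdc25a) and 0.70 (Chek1) and did not pass. The p53 family and regulators had 0 of 27 higher and 1 lower, the Trp53 probe, against 1.5% of all probes lower, with a median of 0.04. Over the alternatives the median of the checkpoint list ran from 0.12 to 0.44 and that of the p53 family from 0.03 to 0.21.

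The p53 target list had 3 of 45 tested probes higher, against 3.33% of all probes, 0 lower and a median of 0.13. Phlda3, a p53-induced inhibitor of Akt, lay between -0.34 and 0.75 in polypoid and between -2.11 and -0.97 in inflamed tissue, a rise of 3.24-fold (limma adjusted p = 0.0374). Ddit4, an inhibitor of mTOR that responds to stress and low oxygen, lay between 1.101 and 1.64 in polypoid and between -0.43 and 0.44 in inflamed tissue, a rise of 2.75-fold (limma adjusted p = 0.0236). Neither gene overlapped between tissues, and 8.2% of all probes were higher without overlap. The called probes of Rpa1, Polb, Chek1 and Ccng1 did not overlap either. Ccng1, a cyclin that p53 induces, was 1.58-fold higher (limma adjusted p = 0.0341), and its other probe had a difference of 0.30 that did not pass. Cdkn1a and Mdm2 are in the same list and did not pass. Over the alternatives the list's median ran from 0.07 to 0.17.

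None of these 7 pathway calls stood with scan session as a fixed block, a fit with 1 residual degree of freedom in which 0 of all probes passed by limma (4169 at an unadjusted p under 0.05). There the adjusted p was 0.337 to 0.61, and the log2 differences were 1.13 for Rpa1, 0.99 for Polb, 0.30 for Cdc25a, 0.62 for Chek1, 1.27 for Phlda3, 1.68 for Ddit4 and 0.51 for Ccng1. The calls of Rpa1, Cdc25a and Chek1 were lost when any one of the 8 mice was left out. That of Polb stood only without untreated inflamed mouse 1, that of Ccng1 only without untreated polypoid mouse 1, that of Phlda3 without either of untreated polypoid mouse 1 and untreated inflamed mouse 2, and that of Ddit4 without either of untreated polypoid mouse 1 and 5-ASA inflamed mouse 2. Without 1 mouse the log2 differences ran from 0.64 to 0.83 for Rpa1, 0.62 to 0.83 for Polb, 0.66 to 0.88 for Cdc25a, 0.54 to 0.67 for Chek1 and 0.60 to 0.73 for Ccng1. They ran from 1.42 to 1.97 for Phlda3 and from 1.24 to 1.68 for Ddit4.

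**Figure D4:**
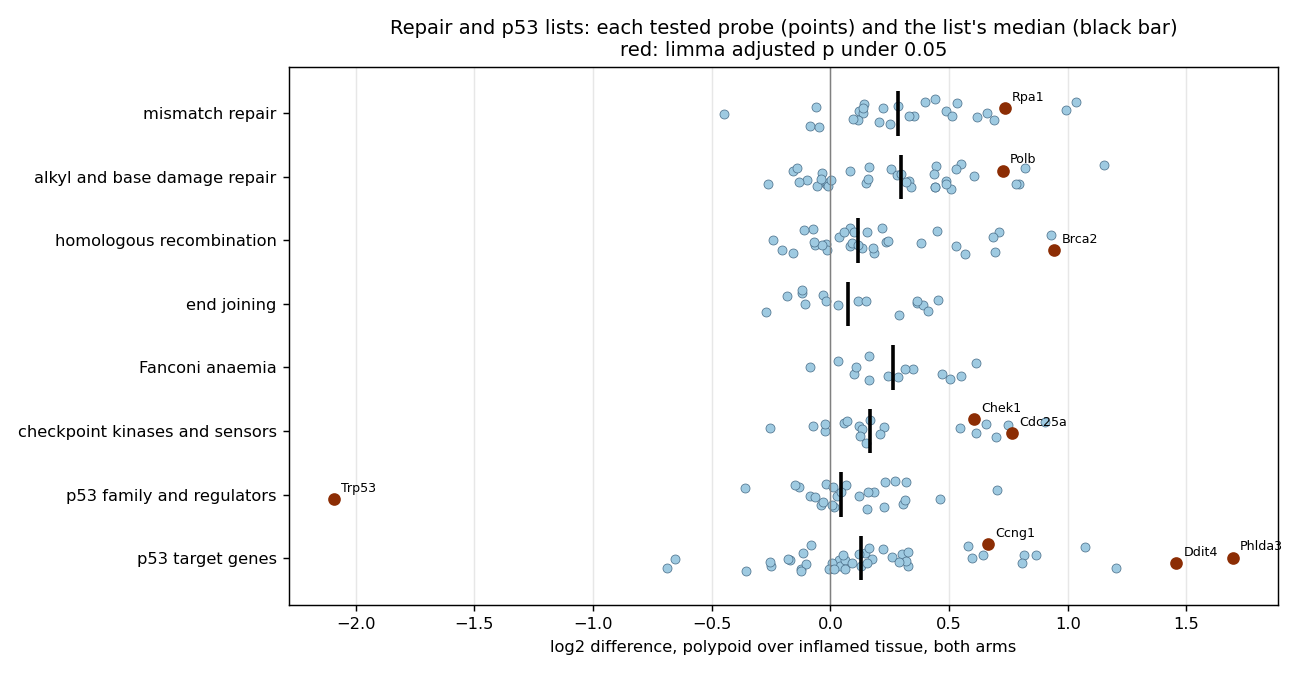
Log2 difference of polypoid over inflamed tissue in both arms (horizontal axis) for each tested probe (points) of 8 repair and p53 lists (rows), with the list's median as a black bar; red points have a limma adjusted p under 0.05 and are named. All medians are between 0.04 and 0.30, and Trp53 at -2.09 lies far to the left of the other points.

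Markers of other cells differed between tissues too, and their part in the results above was not tested. Among 26 tested probes of proliferation markers, 5 were higher in polypoid tissue and 0 lower by limma, with a median difference of 0.51. Of all probes, 3.33% were higher and 1.5% lower. Their mean level per mouse was -0.74 to -0.33 in polypoid and -1.80 to -0.97 in inflamed tissue, and 5-ASA inflamed mouse 1 was the lowest. No gene of the proliferation list is in the 8 repair and p53 lists. This follows from how the lists were chosen and does not separate repair from proliferation. Smooth muscle markers had 3 of 13 probes lower, against 1.5% of all probes, with means of 0.27 to 0.74 in polypoid and 0.74 to 2.54 in inflamed tissue.

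Neutrophil markers had 3 of 7 probes higher, against 3.33% of all probes, with means of 1.78 to 2.69 in polypoid and 0.24 to 0.59 in inflamed tissue. Only 2 of the 7 were well above background on all 15 arrays, so the inflamed means rest partly on background. The called Retnlg probe was well above it on 8 of 8 polypoid and 2 of 7 inflamed arrays, and met the brightness filter through polypoid tissue alone. Colon epithelium markers had 2 of 19 lower (Slc26a3 and Cdx1), against 1.5% of all probes. Their means were 2.44 to 3.46 in polypoid and 3.58 to 3.90 in inflamed tissue. Of 22 leukocyte probes 1 was lower, against 1.5% of all probes, and of 10 fibroblast probes 1 was higher, against 3.33%. Of 5 endothelium probes none passed by limma and 0 had an unadjusted p under 0.05. Among the marker probes, 1 each of Kdr, Cd4, Rrm1 and Acta2 was above background on 0 of 15 arrays.

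Over the 8 mice and 30164 probes with a value in every mouse, the patterns most like Trp53 A_52_P781398 were those of Parp14 (Pearson r of 0.995), Kdm5c (0.987) and Sptbn4 (0.985). For Brca2 A_51_P451106 they were Ewsr1 (0.991), Gdpd5 (0.978) and Col7a1 (0.973). These are the highest of many correlations over 8 points that share 2 tissues, and they are given as a description.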

How the data were processed

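Agilent 2-colour arrays of 8 mice were read. Per the file headers, Agilent Feature Extraction 9.1.1.1 wrote the deposited scanner intensity values (mean signal and local background per channel) and a log10 ratio, which was not used. The value table deposited by the authors holds log2 of sample over reference with swapped arrays turned. Per array its r with these re-computed values was 0.996 or higher, its column medians were -0.012 to 0.031, its scaling steps are not given in the sources used here, and it served as an alternative.

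In R 4.3.3 with limma 3.58.1 (statmod 1.5.0), background was corrected by normexp (offset 50), dyes were aligned by loess within arrays, outlier spots were left out, and a fit of animal plus dye gave 1 log2 value per probe and mouse. The 30166 probes whose sample channel was well above background throughout 1 or more groups were fitted with group means, 4 residual degrees of freedom (prior 2.18), and p-values were adjusted by Benjamini-Hochberg per comparison, threshold 0.05, over 7 comparisons. No label says that the 2 mice of a group came from separate cages or litters, so p-values measure the spread between these mice. The fit was tested on simulated data.

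The members and lists, the tests and the motifs were chosen with earlier results of these data known. Every probe of the 8 genes is given, and each list names up to 3 called probes in each direction in 2 comparisons, and each called member probe its 3 most similar genes. Gene symbols were taken from RefSeq (GRCm38.p6) by accession for 22864 probes and by name for 10230, and 8080 kept the array's name. The array files name no genome build. Alternatives changed the background correction, normalization, brightness filter, scan session, replicate block, dye, probe choice, outlier spots and the mice used.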

Additional observations from a re-analysis of the deposited data

Results flagged for a closer look

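Trp53 probe A_52_P781398 lay on opposite sides of untreated mice in the 2 tissues of 5-ASA mice. Both 5-ASA mice were below both untreated mice in polypoid tissue, and both were above both untreated mice in inflamed tissue. The 12 tested probes were searched for such an opposite order, so it is the rule of selection and not a test. Its share over all probes was not counted. The difference of the 5-ASA effect, polypoid minus inflamed, was -2.11 on the log2 scale (SE 0.58), with an unadjusted p of 0.00996 and an adjusted p of 0.816 by limma over all probes. Over 20 alternatives the difference ran from -2.74 to -1.54 and the adjusted p was 0.396 or more. The other Trp53 probe, A_52_P491849, had a difference of 1.54 ± 1.04 (SE, limma adjusted p = 0.922). Colon epithelium, proliferation and smooth muscle markers had median differences of the 5-ASA effect of -0.60, 0.66 and 0.91, and their part in the Trp53 value was not tested.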

How the results depend on the processing

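Of 1631 values of the member probes under the alternatives, none reversed a call, 93 had the other sign with neither value called, 26 lost a call and 2 gained one, both for Msh6 A_51_P405565. The count of 2 member probes called between tissues in both arms became 0 with scan session as a fixed block, where 0 of all probes passed by limma (4169 at an unadjusted p under 0.05) and 1 residual degree of freedom remained, and 0 to 2 when 1 mouse was left out. In the 5-ASA arm the count of 2 became 1 with the deposited value table, 0 with the session block, and 0 to 2 when 1 mouse was left out. With session as a random block (consensus correlation 0.154) the count was 2 in both comparisons. Trp53 A_52_P781398 was called between tissues in both arms in 15 of 20 alternatives (-2.71 to -1.80) and Brca2 A_51_P451106 in 12 of 20 (0.80 to 1.08). Among these alternatives, Aquantile scaling, keeping outlier spots, both changes of the brightness filter, 1 probe per gene and the replicate block could not move the differences. They could move at most the p-values. The count of called probes over the whole array was 1458, against 128 to 1455 without 1 mouse (128 without 5-ASA inflamed mouse 1) and 1066 to 2180 under the alternatives that drop no mouse and use no block. The replicate block gave 2 member calls in both arms and 2054 calls in all. The labels do not say whether equal replicate numbers pair mice. No scan session held mice of both numbers, so replicate number and session cannot be fully told apart. Deviations of same-numbered mice correlated at 0.04 to 0.37 between groups. The 7 named pathway genes lost their call without 6 to 8 of the 8 mice, at limma adjusted p-values up to 0.158, and kept their direction in all 137 comparisons run, with list medians of 0.03 to 0.59. The number of mice, 2 per group, limits precision, and dim probes are bounded by background.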
